A study of Mus musculus with 7 samples.

Results

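Label 1 is 1 of 19 cluster numbers that the authors deposited with their cells of the embryonic mouse cortex, and its cells carry the genes of radial glia from the neurogenic period. Its members were the cells with that number, apart from cells in which genes with symbols starting Hba- or Hbb- gave over 2% of the UMIs. The number was carried by 1143 cells, of which 8 were set aside for haemoglobin (7 of them from E10.5 and 1 from replicate 1 of E14.5). The remaining 1135 were used, of 10261 cells in all. The members set aside had at least 8.86% haemoglobin UMIs, and the next member had 0.450%.

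The series profiled dorsal forebrain of CD-1 mouse embryos, an outbred strain, with Drop-seq, a droplet method that tags mRNA with a cell barcode and with unique molecular identifiers (UMIs), so that molecules rather than reads are counted. The 7 samples were taken at E10.5, E12.5, E14.5 (replicates 1 and 2), E15.5, E16.5 and E18.5. All shared strain and tissue, and the labels name no treatment and no mutation. How many embryos or litters a sample held is not given in the labels. The p-values thus measure no more than the spread among the samples fitted, and that spread may be technical. The main fits held at most 5 of these 7 samples.

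Radial glia are the neural stem cells of the embryonic cortex. They divide at the ventricular surface, make neurons directly or through intermediate progenitors, and later make glia. Notch signalling holds them in the progenitor state through Hes repressors, which keep proneural factors such as Neurog2 down. As development goes on they gain nuclear factor I proteins and glial enzymes and lose early chromatin proteins such as Hmga2.

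The earliest sample, E10.5, gave 34 members, E12.5 gave 497, replicates 1 and 2 of E14.5 gave 499 and 46, and E15.5 gave 51. Only 3 members came from E16.5 and 5 from E18.5. The shares of the cells of each sample were 2.92%, 18.6%, 15.4%, 9.07%, 5.03%, 0.777% and 0.392% in the same order. They are not compared between stages, because genes that define the clusters also change with stage. The 5 samples up to E15.5 held at least 20 members each and were fitted. Their member UMIs summed to 59681, 842410, 886720, 144668 and 116731, so that 3 UMIs corresponded to 50.3 counts per 1e6 UMIs (CPM) at E10.5 and to 3.56 CPM at E12.5. The E10.5 members were shallow: their median was 959 UMIs, against 3293 UMIs over all cells of that sample, and 16 of the 34 had at least 1000 UMIs. Members of E10.5 had a median mitochondrial share of 4.96%, those of E12.5 had 3.72%, those of replicates 1 and 2 of E14.5 had 2.1% and 2.73%, and those of E15.5 had 6.75%. Each stage other than E14.5 is 1 sample, so stage and preparation cannot be told apart. Levels below are CPM over the UMI total of the summed cells.

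The highest ratios of label 1 to the mean of the other labels were those of Id4, Aldoc, Ung, Rbm20, Creb5 and Hes5, most of which the other radial glia labels held at nearly the same level. The cells were clustered on their genes, so a level in label 1 beside another label is a description with no test. Among 3876 genes with at least 50 CPM in label 1, Id4 had the highest ratio to the mean of the other labels, 5.16-fold with 5 CPM added to both values. Id4, an inhibitor of basic helix-loop-helix factors, stood at 1794 CPM in label 1, against 1783 CPM in label 3. Hes5, the main Notch effector of radial glia, stood at 1465 CPM and was 4.37-fold over that mean, with 1219 CPM in label 10. Aldoc, the brain aldolase that later marks astrocytes, stood at 621 CPM in label 1 and was 5.06-fold over the mean, but label 12 was higher, at 1139 CPM. Creb5, a transcription factor of the CREB family, stood at 108 CPM and was 4.41-fold over the mean, with 94.6 CPM in label 10. Ung, the uracil DNA glycosylase that works at replication forks, stood at 95.3 CPM and was 4.62-fold over the mean, and the next label, label 6, had 52.7 CPM. Lpar1, a receptor for lysophosphatidic acid first found in the cortical ventricular zone, stood at 165 CPM and was 3.38-fold over the mean, with a higher level in label 15, at 289 CPM. All 6 markers were therefore among the 15 genes with the highest ratios.

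Of the other leading genes several were higher in another label. Nr2e1, a nuclear receptor of neural stem cells, stood at 625 CPM and 3.94-fold over the mean of the other labels, but at 804 CPM in label 3. Sox9, a transcription factor of neural stem cells and glia, stood at 607 CPM and 3.78-fold, and Prdm16, a chromatin regulator of radial glia, at 78.4 CPM and 3.61-fold. Ccnd2, a D-type cyclin of cortical progenitors, stood at 1649 CPM and 3.58-fold. Ttyh1, a membrane protein of neural stem cells, stood at 1065 CPM and 3.92-fold over the mean, but at 1409 CPM in label 12. Rbm20, Fgfbp3, Ddah1 and Etl4 completed the 15 genes, and each of these was higher in label 10 or label 12 than in label 1. Pax6, Sox2 and Hes1, which define cortical progenitors in general, stood at 327, 663 and 597 CPM in label 1, below the 435, 872 and 810 CPM of label 3.

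Promoter sequence is shown for the 3 markers with the highest levels in label 1, because Hes5 is a direct Notch target in mouse. The sequences are the 250 bases before the first listed start of each gene, from RefSeq with build GRCm38.p6, all on the + strand: Hes5 at chr4:154960673-154960922, Aldoc at chr11:78322823-78323072 and Id4 at chr13:48260866-48261115. Capitals mark GTGGGAA, the core of the site of RBPJ, the DNA-binding partner of Notch, on either strand.
Hes5: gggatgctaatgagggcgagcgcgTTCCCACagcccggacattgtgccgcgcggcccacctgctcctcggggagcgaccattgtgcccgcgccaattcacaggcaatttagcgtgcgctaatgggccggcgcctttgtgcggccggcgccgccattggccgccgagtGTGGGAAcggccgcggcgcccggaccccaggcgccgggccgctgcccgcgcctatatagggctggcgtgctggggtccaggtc
Aldoc: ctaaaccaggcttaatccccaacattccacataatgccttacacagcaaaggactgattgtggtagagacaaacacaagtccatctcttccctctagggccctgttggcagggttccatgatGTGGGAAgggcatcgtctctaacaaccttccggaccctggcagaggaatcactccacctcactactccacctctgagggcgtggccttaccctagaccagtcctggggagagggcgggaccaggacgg
Id4: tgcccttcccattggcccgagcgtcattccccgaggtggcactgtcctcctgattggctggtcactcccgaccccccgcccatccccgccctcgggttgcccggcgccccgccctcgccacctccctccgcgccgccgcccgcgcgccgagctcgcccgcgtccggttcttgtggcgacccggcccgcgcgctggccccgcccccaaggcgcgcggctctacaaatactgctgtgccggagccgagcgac
The Hes5 window held 2 matches, 1 on each strand, the Aldoc window held 1 match, and the Id4 window held none. The windows of Creb5, Lpar1 and Ung, and that of a second start of Aldoc, held none. Over all 32851 promoters of the table the 250 bases held the motif in 1779, or 5.42%. A match is a run of letters, not a site shown to be bound, and its absence from a window says nothing of the factor.

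The markers were not at one level from stage to stage. Aldoc in label 1 stood at 16.8 CPM at E10.5, which is below the level of 3 UMIs, at 342 CPM at E12.5, at 895 and 671 CPM in replicates 1 and 2 of E14.5 and at 831 CPM at E15.5. All 3 later samples were above both early ones. Of all genes tested for a slope, 29.0% separated these samples in 1 direction or the other. Hes5 stood at 637, 1075, 1835, 2523 and 711 CPM in the same order, highest in the E14.5 samples and low at both ends. Id4 stood at 1072, 1892, 2047, 1037 and 702 CPM, with replicate 1 of E14.5 close to 2 times replicate 2 and the lowest level at E15.5. Ung, at 83.8, 120, 83.5, 76.0 and 34.3 CPM, was lowest at E15.5. Creb5 ranged between 50.3 and 129 CPM and Lpar1 between 82.9 and 231 CPM, with early and later samples overlapping.

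**Figure D1:**
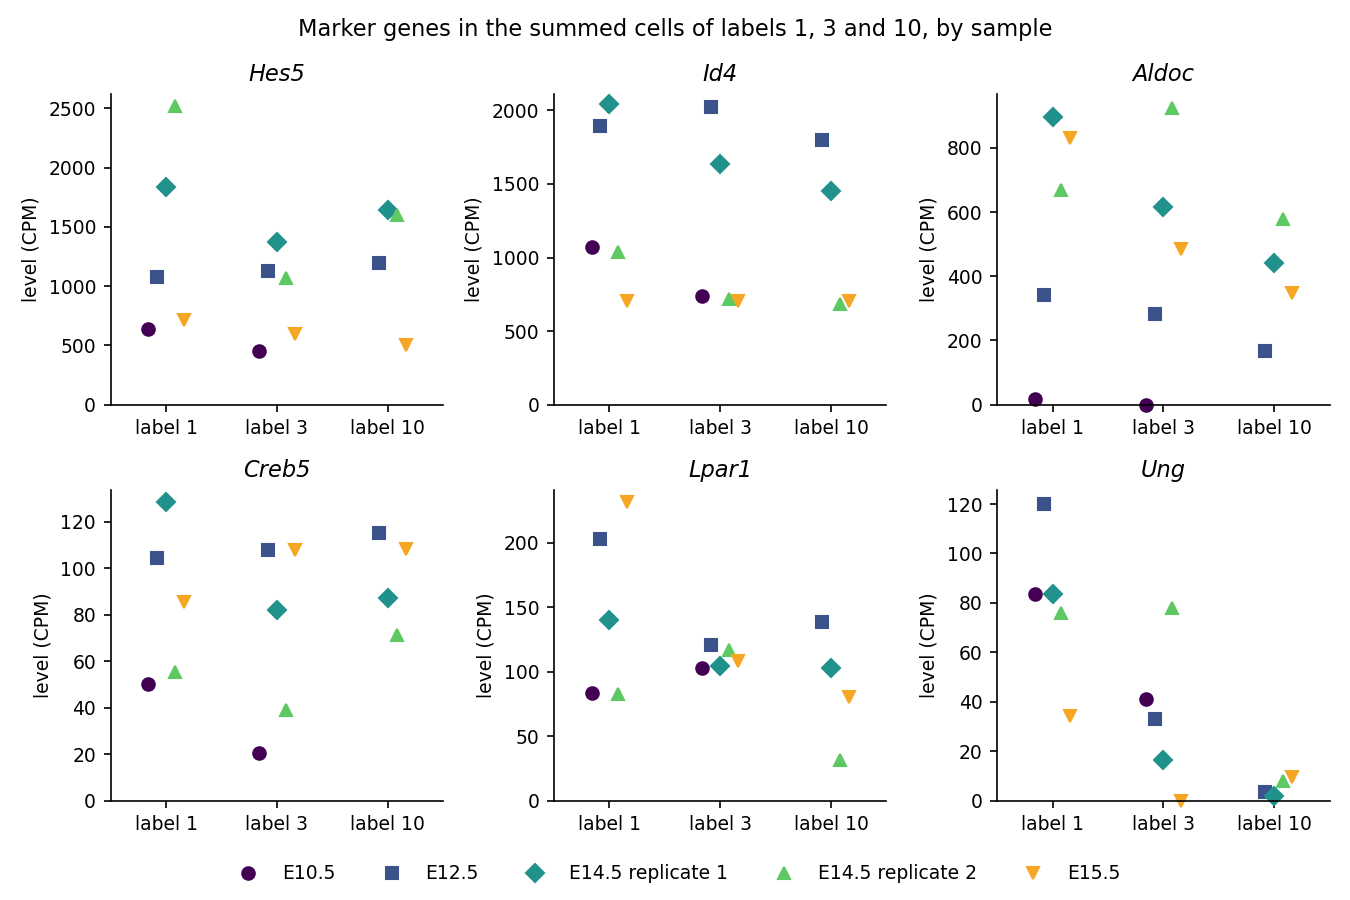
Level in CPM (vertical axis) of the 6 marker genes in the summed cells of labels 1, 3 and 10 (horizontal axis). Each point is 1 label in 1 sample, with the sample shown by colour and symbol. Aldoc in label 1 lies at 16.8 CPM at E10.5 and between 671 and 895 CPM in the 3 later samples, and Ung in label 1 lies above label 10 in all 4 samples shared with it.

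Within single cells the markers were detected in a part of the members. After each cell was thinned to 1000 UMIs, which kept 847 members and left out 288, Hes5 had a UMI in 67.2% of members (95% exact interval 63.9% to 70.3%) and in 1.56% of the neurons of label 2. Unthinned, 73.0% of members had a Hes5 UMI. Id4 had a UMI in 74.9% of thinned members (71.8% to 77.7%), and Aldoc in 38.7% (35.4% to 42.1%), against 4.92% and 0.600% of label 2 cells. The other radial glia labels were much closer. In labels 3 and 10, Hes5 was found in 57.6% and 59.0% of thinned cells, Id4 in 76.9% and 65.6%, and Aldoc in 29.5% and 21.9%. The median depth before thinning was 1821 UMIs in the thinned members, 2195 in label 2, 2308 in label 3 and 3312 in label 10. The intervals cover counting error only. The share of thinned members with Aldoc was 0 of the 16 at E10.5 (upper limit of the exact interval 20.6%), 23.8% at E12.5, 52.8% and 48.8% in replicates 1 and 2 of E14.5, and 53.8% at E15.5. The Aldoc differences between stages thus stood in the share of cells with a UMI as well as in the summed level.

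Label 1 was set beside the other large radial glia labels for cell cycle genes and proneural genes. Label 3 (907 cells) and label 10 (429 cells) carried the same radial glia genes. Hes5 in label 1 was 1.38-fold over label 3 on average over the 5 samples, Id4 1.20-fold, Creb5 1.29-fold and Lpar1 1.22-fold, with label 1 higher in 4, 4, 3 and 3 of the samples. Over label 10 the ratios were 1.22-fold for both Hes5 and Id4, 0.95-fold for Creb5 and 1.89-fold for Lpar1, with label 1 higher in 3, 3, 1 and 4 of 4 samples. Top2a, the topoisomerase of dividing cells, stood in label 1 at 536, 281, 201, 118 and 111 CPM from E10.5 to E15.5, against 1765, 1826, 1789, 1431 and 1864 CPM in label 3. The mean log2 ratio of label 1 to label 3 was -3.01 ± 0.88 (SD, n = 5 samples), with no overlap between the labels. Against label 10 it was -3.93 ± 0.67 (SD, n = 4 samples). The mitotic genes Nusap1, Plk1 and Ube2c were 41.7-fold, 39.8-fold and 38.3-fold lower in label 1 than in label 10.

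The S phase list took a larger share of UMIs in label 1 than in label 10 in all 4 samples summed for both, though not every gene of it was higher. Ung in label 1 stood at 120, 83.5, 76.0 and 34.3 CPM from E12.5 to E15.5, against 3.34, 1.78, 7.95 and 9.43 CPM in label 10, which are 1 or 2 UMIs a sample. Cdc6 and Cdt1, which license replication origins, were 4.22-fold and 3.49-fold higher in label 1. Mcm6, a subunit of the replicative helicase, was 3.85-fold higher, and Chaf1b, a histone chaperone of replicating DNA, was 3.81-fold higher. These were among the highest ratios to label 10, while Rrm2 was at 0.94 times its level, higher in 2 of 4 samples, and 2810417H13Rik, a PCNA-binding factor, at 0.55 times, higher in 1 of 4. A list of 47 S phase genes took 1.23%, 1.18%, 0.828%, 0.794% and 0.740% of the UMIs of label 1 from E10.5 to E15.5. The same list took 1.13%, 1.18%, 1.01%, 1.32% and 0.948% in label 3, and 0.660%, 0.624%, 0.751% and 0.599% in label 10 from E12.5 on. A list of 55 G2 and M phase genes took 0.858%, 0.670%, 0.548%, 0.532% and 0.568% in label 1, against 1.82% to 2.26% in label 3 and 3.30% to 3.87% in label 10. The S phase share of label 1 was thus above label 3 at E10.5, close to it at E12.5 and below it in the 3 later samples. Its G2 and M phase share was below label 3 in all 5 samples and below label 10 in the 4 samples summed for both. Labels other than these 3 were not set beside it here.

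**Figure D2:**
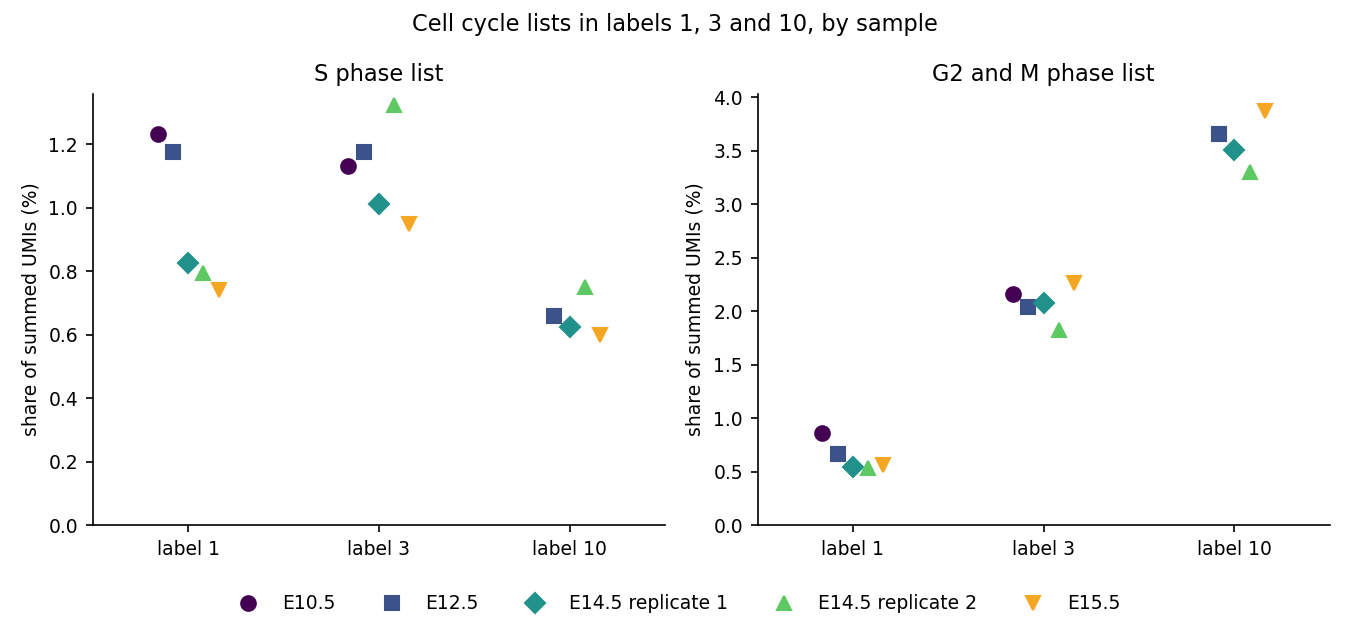
Share of summed UMIs in percent (vertical axis) taken by the S phase list and by the G2 and M phase list in labels 1, 3 and 10 (horizontal axis). Samples are shown by colour and symbol. The G2 and M phase share of label 1 lies between 0.532% and 0.858%, below label 3 in all 5 samples and below label 10 in the 4 samples in which label 10 was summed.

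The 17 proneural and neurogenic factors summed to 1117 CPM in label 1 over all stages, against 775 CPM in label 3, 835 CPM in label 10 and 7406 CPM in label 4. Neurog2, the proneural factor that starts neuron production in the cortex, stood in label 1 at 16.8, 95.0, 114, 145 and 171 CPM from E10.5 to E15.5, against 0, 46.1, 30.2, 65.0 and 54.0 CPM in label 3. Label 1 was higher in each of the 5 samples, by a mean log2 ratio of 1.51 ± 0.47 (SD) or 2.84-fold with 5 CPM added, though the E10.5 pair is 1 UMI against 0. Hes6, an antagonist of Hes1 in differentiating progenitors, stood at 50.3, 134, 162, 145 and 77.1 CPM in label 1, against 0, 47.7, 76.8, 26.0 and 54.0 CPM in label 3, and was 3.32-fold higher on average. Against label 10, Neurog2 was higher in label 1 in 3 of 4 samples, 1.82-fold on average, with 114 CPM against 119 CPM in replicate 1 of E14.5, and Hes6 was higher in all 4 samples, 1.85-fold on average. Over all stages Neurog2 stood at 110 CPM in label 1, against 1176 CPM in label 4 and 627 CPM in label 7. Eomes, the transcription factor of intermediate progenitors, stood at 41.1 CPM in label 1, against 1845 CPM in label 4. A Neurog2 UMI was found in 9.33% of thinned members (7.45% to 11.5%), against 4.48% of label 3, 62.0% of label 4 and 2.52% of label 2. Eomes was found in 3.42% of members, against 1.44% of label 2. Over 4629 genes with at least 50 CPM, 73 were higher and 143 lower in label 1 than in label 3, counted where the mean was at least 2-fold and every sample lay on the same side. Without the condition on samples, 192 were higher and 176 lower, so the balance turned round. Against label 10, 55 were higher and 209 lower of 4670 genes, or 60 and 212 without that condition. Hopx, a gene of later radial glia, stood at 99.2 CPM in label 1, against 553 CPM in label 12.

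With embryonic day, the called rises in label 1 included Nfia, Nfib, Nfix, Zbtb20, Aldoc and Ndrg2, and the called falls included Rrm2 and Top2a. A slope on embryonic day was fitted to the 5 sums with edgeR's quasi-likelihood test with Benjamini-Hochberg adjustment over all 3626 genes tested. A log2 slope of 1 is a doubling per day. It called 36 genes, or 0.993% of those tested, at an adjusted p under 0.05. Of these 29 rose (0.8%) and 7 fell (0.193%), while 475 had an unadjusted p under 0.05, and the median slope of all genes was 0.01. Several called genes passed the filter on low counts through samples of 1 side only. Draxin, Fos, Ccdc80, Fam210b, Igfbpl1, Mfge8, Mmd2, Scrn1, Fstl1, Vps37b, Tnc, Tmem132b and Htra1 passed through the later samples. Hmga2, Fam181a and Cntnap2 passed through E10.5 and E12.5. The calls of these genes are no support for a change with stage. A fitted slope of a gene listed at 0 in an early sample depends on the prior count.

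Among late transcription factors, Zbtb20, a zinc finger repressor needed for the late fates of cortical progenitors, stood at 0, 179, 444, 629 and 1071 CPM from E10.5 to E15.5. Its slope was 0.95 (SE 0.12, edgeR adjusted p = 0.0014, n = 5 samples). Each later sample was above each earlier one. Nfix, a nuclear factor I protein that drives gliogenesis, stood at 0, 103, 570, 781 and 497 CPM, with a slope of 1.03 (SE 0.17, edgeR adjusted p = 0.0096). The 3 later samples were all above E12.5, and the call was lost without E12.5 (adjusted p = 0.177) or replicate 1 of E14.5 (adjusted p = 0.0632). Nfia stood at 33.5, 226, 468, 373 and 677 CPM and Nfib at 67.0, 686, 1531, 1120 and 1576 CPM, with slopes of 0.62 and 0.66. Tcf4, a partner of proneural factors, stood at 251, 1032, 2665, 1707 and 3033 CPM, with a slope of 0.67. In each of these the level of E12.5 lay between E10.5 and the later samples. Without E10.5 the slopes of Tcf4, Nfia and Nfib were 0.51, 0.50 and 0.41, and the calls were lost (adjusted p = 0.0595, 0.0563 and 0.173). Nfib also lost its call without replicate 1 of E14.5 (edgeR adjusted p = 0.0632). Of 14 tested genes from a list of 21 temporal transcription factors, these 5 rose and Hmga2 fell. Over all genes tested 0.8% rose and 0.193% fell. The median slope was 0.18 in the list and 0.01 over all genes tested. The list median includes Hmga2, which passed the filter through the early samples, and is no support. Zbtb20 spans 42875881 to 43642602 on chromosome 16 and Nfix 84699876 to 84800344 on chromosome 8 (GRCm38).

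Of 13 genes tested from a list of 28 for astroglial metabolism and transport, 4 rose, none fell and 9 did not pass. Over all genes tested 0.8% rose. Aldoc had a slope of 0.68 (SE 0.12, edgeR adjusted p = 0.0142), and without E10.5 the slope was 0.46 and the call was lost (adjusted p = 0.109), as it was without replicate 1 of E14.5 (slope 0.67, adjusted p = 0.0727). Ndrg2, an astrocyte-enriched gene, stood at 33.5, 72.4, 350, 283 and 445 CPM, with a slope of 0.90 (SE 0.11, edgeR adjusted p = 0.0013). The 3 later samples were all more than 3 times the level of E12.5. Mt1, a metallothionein, stood at 83.8, 103, 526, 276 and 677 CPM, with a slope of 0.82, and Htra1, a secreted serine protease, at 0, 1.19, 56.4, 96.8 and 129 CPM. The call of Mt1 was lost without E12.5 (edgeR adjusted p = 0.0894). Htra1 passed the filter through the later samples, so its call is no support. The median slope of the 13 was 0.38, against 0.01 over all genes tested. That median includes Htra1, so it is no support for a rise of the list.

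Of 25 radial glia identity genes 4 were called, all as rises, with limits given below. Fabp7, the brain lipid-binding protein, stood at 184, 1994, 2676, 2959 and 5568 CPM, with a slope of 0.73 (SE 0.12, edgeR adjusted p = 0.0072). Its level at E15.5 was the highest and E10.5 stood far below the rest, and without E10.5 the slope was 0.44 and the call was lost (adjusted p = 0.112). Mfge8, a secreted glycoprotein of radial glia and astrocytes, stood at 0, 38.0, 139, 276 and 197 CPM and Dbi, an acyl-CoA-binding protein, at 804, 1255, 2576, 2191 and 3195 CPM. These, with Tnc, were the 4 called of 25 identity genes, all rises, with a median slope of 0.28 over the 25. Over all genes tested 0.8% rose. Mfge8 and Tnc passed the filter through the later samples, so their calls, and the median that includes them, are no support. The call of Dbi was also lost without E10.5 (slope 0.44, adjusted p = 0.104). In that fit Mfge8 and Tnc were the only called rises of the list, and Lix1 was called as a fall (slope -0.94, edgeR adjusted p = 4.2e-04). Pax6, Sox2 and Hes1 were not called, with slopes of 0.16, -0.05 and 0.11 (SE 0.10, 0.07 and 0.09). Hes5 had a slope of 0.25 (SE 0.13, edgeR adjusted p = 0.448). Without E15.5 it was 0.44 and was called (adjusted p = 0.0145). Id4, Creb5, Lpar1 and Ung were not called, with slopes of -0.06, 0.07, 0.04 and -0.22 (SE 0.11, 0.13, 0.13 and 0.12). Hopx, at 33.5, 55.8, 142, 104 and 120 CPM, had a slope of 0.47 that was not called.

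Of 10 tested genes from a list of 28 for matrix and adhesion, Tnc, Mfge8 and Ccdc80 rose, none fell and 7 did not pass. The median slope was 0.27. Over all genes tested 0.8% rose. Tnc, Mfge8 and Ccdc80 passed the filter through the later samples, so their number, and the median that includes them, are no support. Draxin, a secreted guidance protein that antagonises Wnt, stood at 16.8, 8.31, 198, 228 and 411 CPM. Its slope was 1.71 (SE 0.20, edgeR adjusted p = 0.0011), with 1 UMI at E10.5, where 3 UMIs stand at 50.3 CPM. Draxin passed the filter through the later samples alone, so its call is no support. Tnc, the matrix protein tenascin C, stood at 0, 2.37, 62.0, 69.1 and 137 CPM. Tmem132b, a membrane protein, stood at 0, 1.19, 69.9, 62.2 and 180 CPM. In both, as in Htra1, each early sample had fewer than 3 UMIs, so that they passed the filter through the later samples alone and their fitted slopes, the steepest of all, are no support. Ccdc80, a secreted matrix protein, and Igfbpl1, a secreted protein related to insulin-like growth factor binding proteins, rose with slopes of 1.13 and 1.01.

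Fos, an immediate early gene, stood at 33.5, 7.12, 90.2, 242 and 223 CPM, with a slope of 1.38 (SE 0.28, edgeR adjusted p = 0.0309). It was the 1 gene called of 5 tested from the immediate early and heat shock list, and the median slope of that list was 0.26. Fos passed the filter through the later samples, so its call, and the median that includes it, are no support. Cwc22, a splicing factor, stood at 151, 280, 461, 1783 and 2227 CPM, and Fam210b rose with a slope of 1.11. The 2 replicates of E14.5 were far apart for Cwc22, by 461 and 1783 CPM. Other called rises included Mmd2, Scrn1, Fstl1, Vps37b, Tsc22d4, Dpysl3, Gm3764 and Trim2, with slopes between 0.43 and 0.70. Without E10.5 the calls of Mmd2, Vps37b, Dpysl3, Gm3764 and Trim2 were lost. Those of all these other rises were lost without E12.5 and without replicate 1 of E14.5. Cwc22 lost its call without E12.5 (edgeR adjusted p = 0.116).

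**Figure D3:**
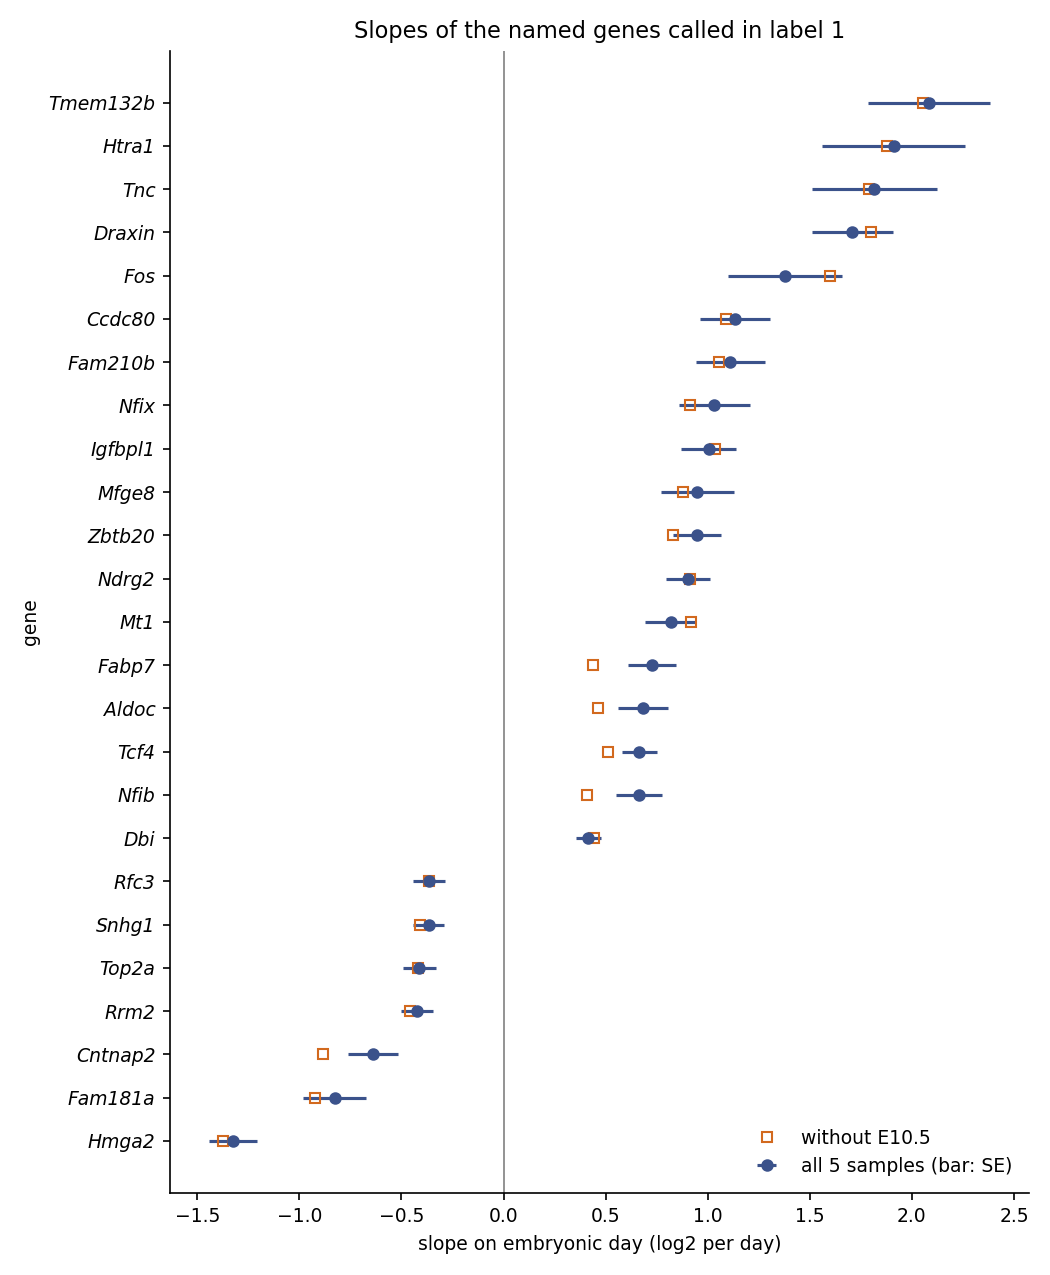
Slope on embryonic day (horizontal axis, log2 per day, with bars for 1 SE) of the steepest genes and list members called in label 1 (vertical axis), with open squares for the fit without E10.5. Tmem132b at 2.08 and Hmga2 at -1.32 are at the ends, and every open square keeps the sign of its filled point.

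The steepest fall was that of Hmga2, the architectural chromatin protein of early stem cells, on chromosome 10 (120361275 to 120476469, - strand, GRCm38). It stood at 771, 133, 13.5, 20.7 and 25.7 CPM in label 1 (slope -1.32, SE 0.12, edgeR adjusted p = 1.0e-04). The early samples lay more than 5 times above all later ones. Hmga2 passed the filter through the early samples alone and was not tested without E12.5, so its call is no support. Label 3 had 842, 197, 17.8, 0 and 27.0 CPM of Hmga2 in the same samples. Fam181a stood at 218, 78.3, 24.8, 20.7 and 8.57 CPM, and Cntnap2, an adhesion protein of the neurexin family, at 201, 147, 42.9, 34.6 and 34.3 CPM. The same limit holds for the calls of Fam181a and Cntnap2. Of 5 tested genes from a list of 19 for early neuroepithelium, Hmga2 alone was called, which is no support. The median slope was -0.37, and it includes Hmga2.

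The other called falls were genes of dividing cells and 1 non-coding RNA host. Rrm2, the ribonucleotide reductase subunit that supplies nucleotides for replication, stood at 519, 297, 184, 118 and 120 CPM. Top2a stood at the values given above, with a slope of -0.41 (SE 0.08, edgeR adjusted p = 0.0235), Rfc3, a subunit of the clamp loader, at 436, 254, 145, 131 and 146 CPM, and Snhg1, a host of small nucleolar RNAs, at 704, 414, 325, 228 and 146 CPM. In all 4 genes both early samples were above every later one. Of all genes tested 29.0% separated these samples in 1 direction or the other, and the choice of called genes favours it. All 4 calls were lost without E10.5, with slopes there of -0.46, -0.42, -0.36 and -0.41 for Rrm2, Top2a, Rfc3 and Snhg1. They were also all lost without E12.5 and without replicate 1 of E14.5. Of the 5 fits that left out 1 sample, Rrm2 lost its call in 3, and Top2a, Rfc3 and Snhg1 lost theirs in 4 each. Of 41 tested S phase genes, Rrm2 fell, none rose, 37 slopes were negative and the median was -0.20. Of 20 tested G2 and M phase genes, Top2a fell, none rose, 17 slopes were negative and the median was -0.11. Over all genes tested 0.193% fell and the median slope was 0.01, and the share of negative slopes was not counted. Ccnd1, a D-type cyclin, had a slope of -0.37 and Aldoa, the aldolase of most tissues, of -0.21, and neither was called.

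**Figure D4:**
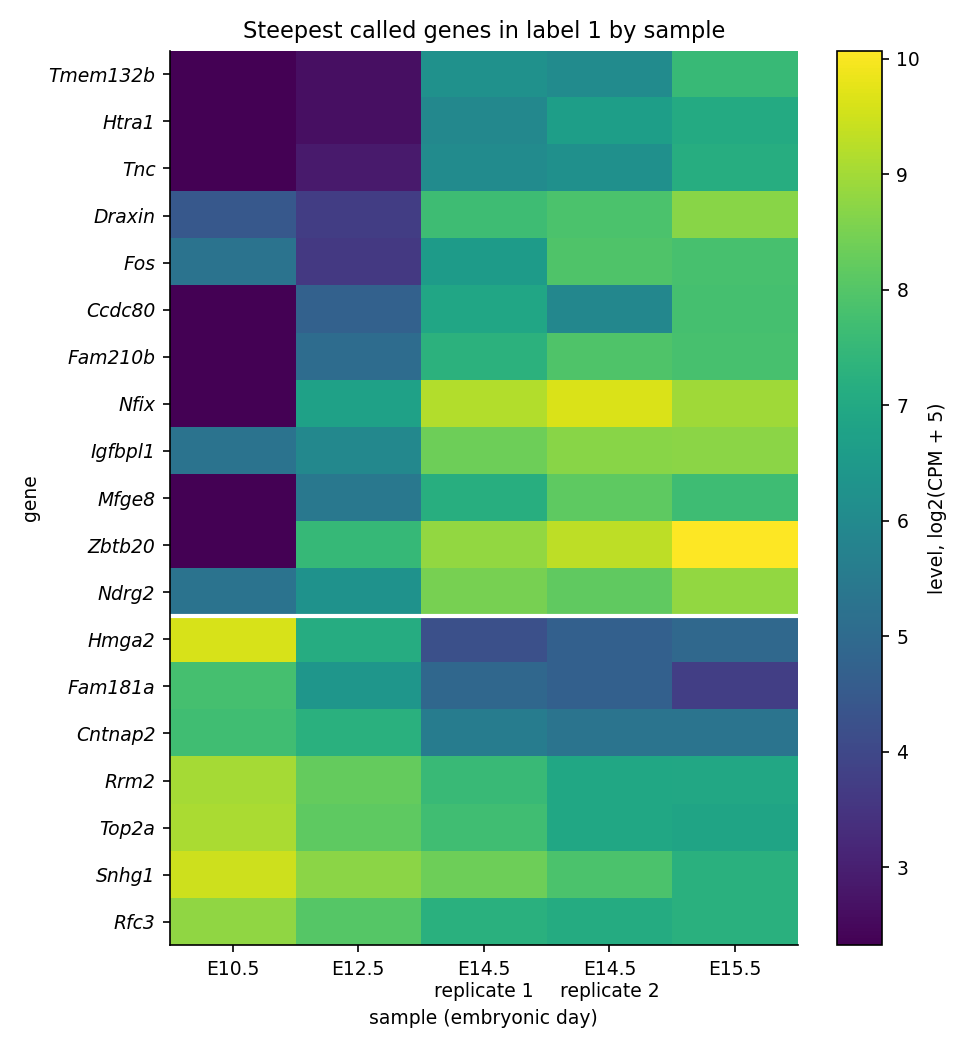
Level on the log2(CPM + 5) scale (colour) of the 12 steepest called rises and the 7 called falls (vertical axis) in the 5 samples of label 1 (horizontal axis, by stage). E10.5 and E12.5 stand on 1 side of the 3 later samples for each gene, which the choice of called genes favours. They do so in 29.0% of all genes tested.

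Notch, Id and proneural genes held no call in the fit of all 5 samples, in which 0.993% of all genes tested were called. None of 5 tested Notch effectors passed (median slope 0.10), nor the 1 tested of 13 Notch receptors and modifiers, and none of the 6 Notch ligands had counts enough to be tested. None of 6 tested Id and Bmp pathway genes passed (median -0.07). Of 17 proneural and neurogenic factors 7 were tested and none passed, with a median of 0.17. Without E10.5 Gadd45g of that list was called as a rise. It passed the filter of that fit through the later samples, so the call is no support. Neurog2 had a slope of 0.35 (SE 0.12, edgeR adjusted p = 0.235), with a level at E15.5 above that of the other samples, and Eomes, at 0, 17.8, 55.3, 104 and 25.7 CPM, was too low to be tested. None passed among 6 tested Wnt genes, 7 FGF and growth factor genes, 11 cortical patterning factors, 13 cholesterol synthesis genes, 8 G1 regulators or 8 DNA repair genes, whose medians lay at 0.01, 0.18, -0.02, -0.10, 0.13 and -0.21. None passed among 7 RNA-binding heterochronic genes or 5 microcephaly and spindle genes (medians -0.05 and -0.09), and Lpar1 was the 1 gene tested of the lysophosphatidic acid pathway. Of 5 tested genes of basal radial glia Tnc alone was called, which is no support for the reason given above. The median was 0.38, and it includes Tnc. Of 10 tested genes of glycolysis Aldoc alone rose, and the median was -0.02.

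Both early samples lay below or above all 3 later ones in 29.0% of the genes tested. All 36 called genes were among these, which the choice of called genes favours and from which nothing is read. Without E10.5, 58 of 7334 genes were called, 37 as rises (0.504%) and 21 as falls (0.286%). Both fits called 20 genes, which is 55.6% of the 36 and 34.5% of the 58, and all 36 kept their sign. Rises there included Mt2, a second metallothionein (134, 30.9, 411, 304 and 583 CPM from E10.5 to E15.5), and Gadd45g, a growth arrest gene (0, 17.8, 102, 166 and 85.7 CPM). Gadd45g passed the filter of that fit through the later samples, so its call is no support. Falls there included Lix1, of the radial glia identity list, at 101, 277, 77.8, 76.0 and 42.8 CPM, and Mthfd2, a mitochondrial folate enzyme, at 151, 192, 49.6, 6.91 and 51.4 CPM. These 4 genes were chosen after their values were seen. The calls of Draxin, Zbtb20 and Ndrg2 held whichever 1 of the 5 samples was left out, though Draxin passed the filter through the later samples. The count of calls was 12 without E12.5 or without replicate 1 of E14.5, 58 without replicate 2 of E14.5 and 54 without E15.5, and these fits held 9, 12, 35 and 27 of the 36 genes.

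The spread between libraries and between replicates is given over all genes. Of genes with at least 50 CPM, 7.30% differed by 2-fold or more between the 2 libraries of E12.5 and 4.73% between those of replicate 1 of E14.5. Between replicates 2 and 1 of E14.5 10.4% differed, and 4.17% between replicate 1 of E14.5 and E12.5.

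Whether the stage changes differed from those of other radial glia was tested as a difference of slopes, with sample as a block. For label 1 minus label 3, edgeR's quasi-likelihood test called 0 of 4193 genes (0.0%) over 5 samples, with 188 at an unadjusted p under 0.05, and DESeq2 called 0. The lowest adjusted p-values were those of 2810417H13Rik, which RefSeq lists as Pclaf, a PCNA-binding factor, and of Top2a. Pclaf stood at 369, 465, 230, 104 and 180 CPM in label 1, against 472, 809, 795, 546 and 810 CPM in label 3, a slope difference of -0.45 (SE 0.09, edgeR adjusted p = 0.0687). The difference for Top2a was -0.37 (SE 0.07, edgeR adjusted p = 0.0759). Without E15.5, 4 genes were called, and the count lay between 0 and 2 without each of the other samples. In label 3 neither of the 2 genes was lower in all later samples than in both early ones. For label 1 minus label 10, 0 of 7293 genes (0.0%) were called over 4 samples, with 336 at an unadjusted p under 0.05 and 0 by DESeq2, and 4 were called without E15.5. The median SE of a difference was 0.16 and 0.24 log2 per day, so differences of that size were not detectable with these samples.

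The same samples of the other labels gave the following levels. Zbtb20 in label 1 had the values given above, against 20.5, 162, 366, 637 and 999 CPM in label 3, and label 10 had 199, 621, 612 and 976 CPM from E12.5 on. Aldoc in label 1 had the values given above, against 0, 282, 616, 923 and 486 CPM in label 3, and label 1 was higher in 4 of 5 samples, 1.57-fold on average. Neither gene was called in the test of the difference of slopes.

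**Figure D5:**
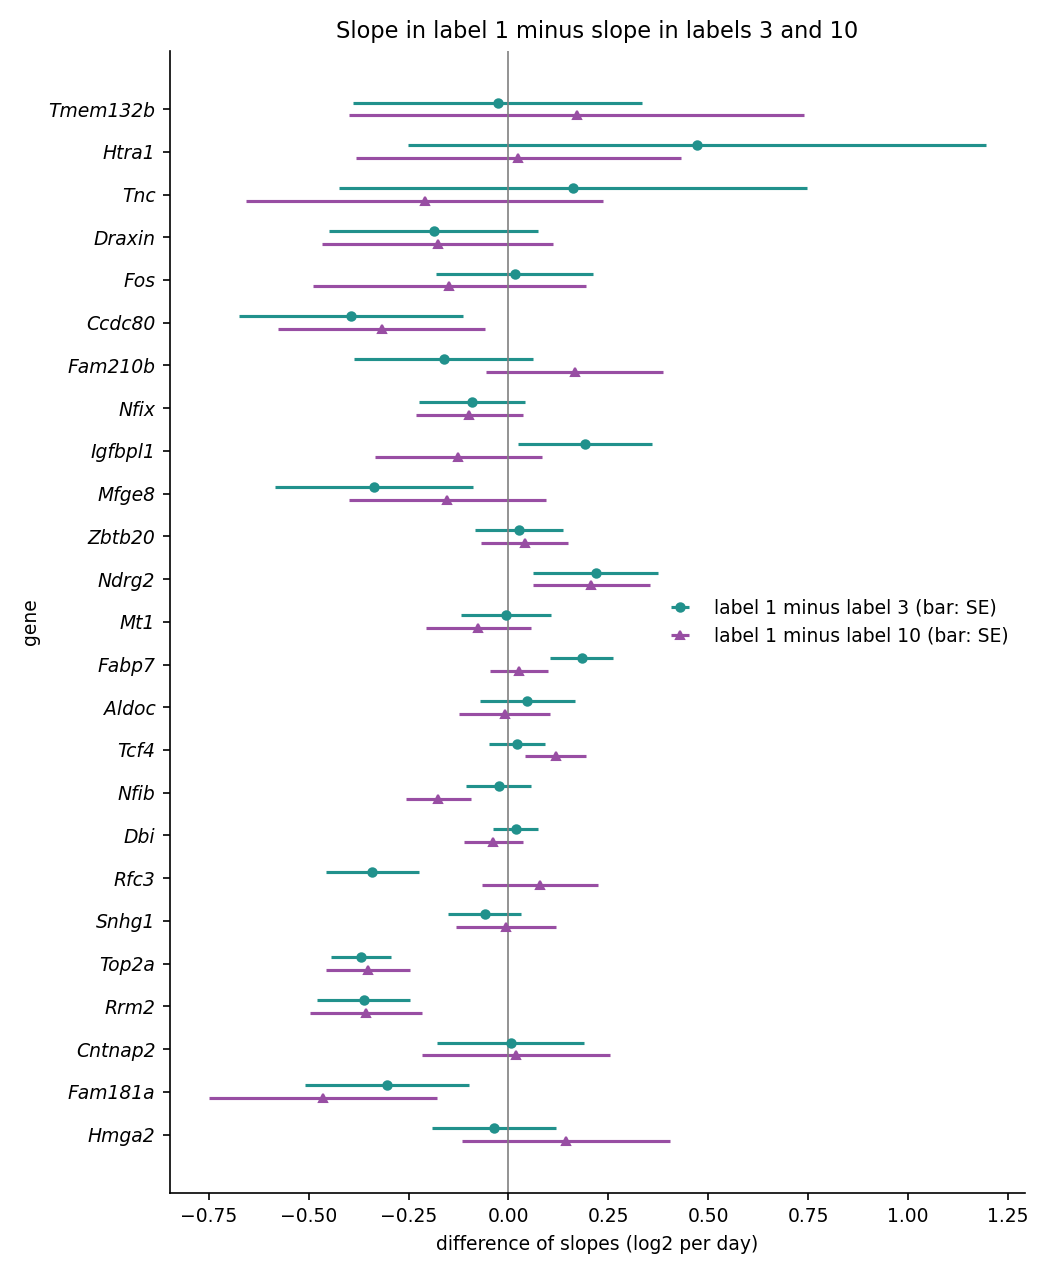
Difference of slopes (horizontal axis, log2 per day, with bars for 1 SE) of label 1 minus label 3 and of label 1 minus label 10 for the steepest genes and list members called in label 1 (vertical axis). The point of Top2a against label 3 lies at -0.37, and none of the points belongs to a called difference.

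Members with a Neurog2 UMI were compared with members without one, after thinning to 1000 UMIs. Only E12.5 (29 with and 341 without) and replicate 1 of E14.5 (32 with and 341 without) had at least 10 cells on each side. With sample as a block, edgeR's quasi-likelihood test called 0 of 4350 genes (0.0%), with 301 at an unadjusted p under 0.05, and DESeq2 called 0. Hes6 stood at 448 and 281 CPM in cells with Neurog2 in the 2 samples, against 120 and 158 CPM in cells without it (log2 difference 1.26, SE 0.44, edgeR adjusted p = 0.458). Sox4, a factor of early neuronal differentiation, stood at 1207 and 1094 CPM, against 572 and 636 CPM. Fabp7 had the lowest adjusted p, with 1517 and 1531 CPM in cells with Neurog2, against 2106 and 2903 CPM in cells without it (log2 difference -0.82, SE 0.17, edgeR adjusted p = 0.0531). The 2 samples showed the same direction for each of these genes, which were chosen after their values were seen. Genes of S phase were also among the lowest p-values, with lower levels in cells with Neurog2 in both samples: Hells, a chromatin remodeller, stood at 276 and 93.8 CPM, against 540 and 387 CPM, and Gmnn, the inhibitor of origin licensing, at 34.5 and 93.8 CPM, against 355 and 223 CPM (edgeR adjusted p = 0.232 for both). With no filter on low counts 8 genes were called, all lower in cells with Neurog2: Fabp7, Dtl, Hells, Gmnn, Atp2b1, Pnn, Pcna and its pseudogene Pcna-ps2, between which counts can be shared. Without thinning, replicate 2 of E14.5 also entered, the cells with Neurog2 at E12.5 and in replicate 1 of E14.5 numbered 59 and 58, and the median depth at E12.5 was 1766 UMIs in cells with Neurog2 and 1331.5 in cells without it. In that fit 6 genes were called: Fabp7, Gadd45g, Hes6, Igfbpl1, Mfng and Sox4.

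Markers of other cell types were low in label 1. The 22 pan-neuronal genes summed to 1743, 2159, 2518, 3304 and 2716 CPM in label 1 from E10.5 to E15.5, against 19511 CPM over all stages of label 2. The 16 intermediate progenitor genes summed to 235, 683, 1123, 1286 and 1037 CPM, against 8418 CPM in label 4. Both sums were higher in the 3 later samples than in the early ones, as the called rises were, and their part in those rises was not tested. Of 16 endothelial and mural genes 4 were detected, with sums of 0 to 20.7 CPM, and Cldn5 and Cdh5 were at 0. Of 20 microglia and blood genes 9 were detected, with sums of 0 to 69.9 CPM. The interneuron list summed to 33.5 to 164 CPM, the Cajal-Retzius list to 14.2 to 68.5 CPM, the hem and choroid plexus list to 20.2 to 111 CPM and the mesenchymal list to 76.0 to 134 CPM. The oligodendrocyte and late glial list summed to 101 to 377 CPM, with Olig2, Pdgfra and Sox10 at 0. Olig2 had a UMI in 0 of 847 thinned members, which limits the share of cells with an Olig2 UMI at this depth to 0.435%, not the share expressing the gene. Label 12 had 250 CPM of Olig2.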

How the data were processed

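Per the labels' protocols, dorsal forebrain was dissociated with papain and cells were captured by Drop-seq (protocol 3.1, Drop-seq tools 3.1). Per the submitters' processing notes, Seurat 3.1.5 and the mm10 genome were used. The authors deposited counts: UMIs as whole numbers, for 21862 genes in 10261 cells. The aligner, annotation and counted strand are not given in the sources used here, so reads of a gene and an overlapping or antisense gene cannot be told apart. The 12 libraries were matched to 7 samples by name. 1 library of replicate 1 of E14.5 is listed under no exact name and was assigned by inference, and fits were repeated without it. A further library named for E16.5 is carried by none of the cells. The cells had 501 genes or more, and their mitochondrial share reached 9.996%.

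The members and gene lists (35 lists, 590 of 599 genes found) were chosen with earlier results of these data known. Samples held 387 to 3235 cells and 1519473 to 6638760 UMIs. Counts of members were summed per sample where at least 20 were present. The sums were fitted in edgeR 4.0.16 (filterByExpr, TMM, estimateDisp, glmQLFit and glmQLFTest, two-sided) in R 4.3.3, with Benjamini-Hochberg adjustment over all genes tested and 0.05 as threshold. Slope differences were the interaction of label and day with sample as a block. Ratios of levels add 5 CPM to both values. Thinning drew 1000 UMIs per cell, and intervals are 95% Clopper-Pearson. Among all cells 4 barcodes occurred in more than 1 library, and 1 member carried such a barcode. Scrublet in scanpy 1.11.5 at an expected rate of 5% called 95 doublets in all (0.926%) and 10 among members, which were left out only in an alternative. Genes named were the 6 markers and 9 genes given in every case, the 12 steepest called rises and falls with a mean of at least 50 CPM, up to 4 called members of each list per direction, and the 15 genes of highest ratio to the other labels. Alternatives were other size factors, DESeq2 1.42.0, other filters, stage as a rank, thinned sums and left-out libraries and cells. The tests were tested on simulated data.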

Additional observations from a re-analysis of the deposited data

How the results depend on the processing

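The slope fit called 36 genes. It called 123 with no filter on low counts, 17 with stage as a rank, 59 with the E14.5 samples summed, 102 in members with at most 5% mitochondrial UMIs, and 12 to 58 when 1 sample was left out. Other settings gave 29 to 54, among them 48 with DESeq2. The slope fit in members with at most 5% mitochondrial UMIs held only E12.5 and replicates 1 and 2 of E14.5. That in members with at least 1000 UMIs lacked E10.5. Counts and slopes from these settings thus rest on fewer stages, as does the difference against label 3 with at most 5% mitochondrial UMIs. The cause of the differences was not tested. The slope difference against label 3 called 0 genes, but 1 with DESeq2's size factors or at most 5% mitochondrial UMIs, 2 with no filter, with stage as a rank, with the E14.5 samples summed or with doublets left out, and 0 to 4 when 1 sample was left out. 2 alternatives chosen after seeing the data, every sample with a member and the inferred library left out, also called 2. The difference against label 10 called 0, but 2 with no filter or the E14.5 samples summed, 1 with stage as a rank, 1 with every sample, and 0 to 4 when 1 sample was left out. The Neurog2 split called 0, but 8 with no filter and 6 without thinning. The difference against label 3 in cells with at least 1000 UMIs, that against label 10 in cells with at most 5% mitochondrial UMIs, and the split with a sample left out could not be fitted.

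Of the slopes given in the text, those that changed sign were all of genes not called: with every sample with a member Hes5 (-0.069), Hes1 (-0.080), Creb5 (-0.0042) and Lpar1 (-0.041); with at least 1000 UMIs Creb5 (-0.028) and Lpar1 (-0.15); with at most 5% mitochondrial UMIs Lpar1 (-0.39); with thinned sums Id4 (0.0049). Leaving out 1 sample gave slopes of -0.38 to 0.081 for Id4, -0.060 to 0.19 for Creb5, -0.12 to 0.29 for Lpar1 and -0.0094 to 0.24 for Pax6. Of the slopes of 48 genes under all alternatives, 158 values lost their call, 5 gained one and 663 kept direction and side. No analysis paired between stages was possible because only E14.5 has a replicate 2, so that the stages share no pairs. The slope differences and the Neurog2 split were paired within samples, with sample as a block. Depth limits the E10.5 end, where 34 shallow members gave 59681 UMIs.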
